A study of Homo sapiens with 2 samples.

Results

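The transcription factor NF-kB and the bZIP factor C/EBP beta were followed through the 10 genes that encode them and their close regulators, NFKB1, NFKB2, REL, RELA, RELB, NFKBIA, NFKBIZ, TNFAIP3, BCL3 and CEBPB. The genes were chosen by name, and their data were all ATAC-seq peaks that touched the 3 kb on either side of the transcription start site (TSS) or the gene body in the GENCODE annotation of hg19. These peaks numbered 56 of 114060 in the DMSO library and 36 of 161184 in the MAK683 library. ATAC-seq uses the Tn5 transposase to cut open chromatin, and the ends it leaves are sequenced, so an open site shows as a heap of ends. Both libraries came from G401, an established cell line derived from a rhabdoid kidney tumor, which lacks the chromatin remodeling subunit SMARCB1. For 3 days 1 culture was kept in DMSO, the solvent, and the other in 3 µM MAK683, which binds the EED subunit of the Polycomb complex PRC2 and blocks methylation of histone H3 at lysine 27. There was 1 library per group, so differences could not be set against replicates, p-values were not computed, and the intervals given cover counting error only.

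NF-kB works as a dimer of RELA, RELB, REL and the processed products of NFKB1 and NFKB2. It is held in the cytoplasm by IkB proteins, enters the nucleus when IkB kinase marks them for degradation, and binds the kB motif at genes of inflammation. Several of its targets encode its own inhibitors, which closes a feedback loop. C/EBP beta often binds beside NF-kB at cytokine genes, and both factors are known as drivers of the secretory program of senescent cells.

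All 10 promoters were open in both libraries, and all 10 had a lower depth-scaled peak in the MAK683 library, as did 78.4% of all promoters with a peak and 96.7% of those of like height. When heights were centred on regions with a peak in both libraries, 7 of the 10 were lower, against 58.8% of all promoters. CEBPB differed most, from 36 tags at its summit in DMSO to 18 in MAK683, and NFKBIA least, from 32 to 34 tags. Of 14 classical NF-kB target genes, 5 had a promoter peak in both libraries. Of these 4 were lower in MAK683, against 86.5% of all promoters with a peak in both. In neither library did a further 4 of the 14 have a peak. The promoters of CXCL1, CXCL2, CCL2, IL1B and VCAM1 had a peak only in the MAK683 library, so they had no measured DMSO height. Such a peak was found at 7.87% of all protein-coding genes, 1587 of 20163. Of all protein-coding genes 14660, or 72.7%, had a DMSO peak and could not count, as against 5 of the 14 targets. The 7.87% is therefore lower than the share among genes without a DMSO peak. The list of targets was fixed with earlier results of these data known. The promoter of PTGS2 had 8 tags in DMSO and 23 in MAK683.

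The kB motif was searched for because the promoters of several members are known to be bound by NF-kB itself. It was taken as GGG, a purine, any base, A or T, a pair of pyrimidines and CC, on both strands of the GRCh37 genome, with overlapping matches merged. Within 500 bp of the TSS a match was present at 8 of the 10 members, against 21.9% of the 20163 protein-coding genes and 23.6% of the 16247 with a promoter peak in either library. At least 2 matches were present at 7 members, against 3.16% of all protein-coding genes. The pattern is rich in G and C, and so are the members' promoters, with a median GC content of 75.6%. Over all promoters with a peak it was 65.8%. Shares of matches at promoters of like GC content were not computed, so part played by composition was not tested. RELA and CEBPB had none within 3 kb. The stretches printed here show matches in the tall promoter peak of 7 members, in the direction of each gene and with the match in capitals. All lay inside peaks of both libraries.
NFKBIA, chr14:35873956-35874075, minus strand, ending at the base before the TSS: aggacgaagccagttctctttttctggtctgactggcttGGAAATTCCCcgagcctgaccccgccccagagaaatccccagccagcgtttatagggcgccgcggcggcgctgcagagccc
TNFAIP3, chr6:138188276-138188350, plus strand, 120 to 46 bp upstream: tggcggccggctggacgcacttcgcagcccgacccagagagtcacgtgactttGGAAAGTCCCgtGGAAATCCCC
NFKB1, chr4:103422396-103422486, plus strand, 120 to 30 bp upstream: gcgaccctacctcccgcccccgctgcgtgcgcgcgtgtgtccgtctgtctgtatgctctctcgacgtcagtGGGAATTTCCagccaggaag
BCL3, chr19:45250725-45250825, plus strand, 1240 to 1140 bp upstream: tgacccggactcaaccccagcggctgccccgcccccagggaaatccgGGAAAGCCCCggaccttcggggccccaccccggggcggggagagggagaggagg
NFKBIZ, chr3:101568109-101568138, plus strand, 249 to 220 bp upstream: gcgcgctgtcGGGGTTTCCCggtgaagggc
NFKB2, chr10:104154219-104154247, plus strand, 1243 to 1215 bp upstream: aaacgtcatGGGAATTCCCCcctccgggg
REL, chr2:61108662-61108673, plus strand, 47 to 36 bp upstream: GGGAAATTCCCc

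The promoter of CEBPB is shown as the contrast, since it held no kB match and differed most between the libraries. A link between the 2 features was not tested, and RELA, also without a match, had a log2 ratio of -0.25. Capitals mark TGACG, the core of the cyclic AMP response element, which was searched on both strands and was present within 500 bp of the TSS at 7 of the 10 members and at 53.9% of all protein-coding genes.
CEBPB, chr20:48807117-48807366, plus strand, the 250 bases before the TSS: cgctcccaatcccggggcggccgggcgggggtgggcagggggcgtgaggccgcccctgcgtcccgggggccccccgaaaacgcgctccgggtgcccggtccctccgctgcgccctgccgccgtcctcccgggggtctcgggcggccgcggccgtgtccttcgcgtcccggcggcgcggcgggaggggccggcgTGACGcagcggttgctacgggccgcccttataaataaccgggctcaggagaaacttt
The C/EBP motif TTGCNNAA matched within 500 bp of the TSS at 2 members, RELB and TNFAIP3, against 25.5% of all protein-coding genes. NFKBIA, the gene of IkB alpha, held 4 such matches within 3 kb, all in peaks of both libraries, and CEBPB held 2, of which 1 lay in peaks of both libraries. Over all 10 genes, 23 kB matches lay within 3 kb of the TSS, 23 of them in DMSO peaks and 21 in MAK683 peaks. Both matches without a MAK683 peak belonged to BCL3. A match describes the letters and does not show that a factor was bound.

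The height of a promoter was the tallest peak that touched the 3 kb around the TSS, as the deposited pileup at the summit scaled to 1000000 tags kept by the peak caller (RPM). Tags kept numbered 16598348 in DMSO and 18265284 in MAK683, so that 1 tag was worth 0.0602 RPM and 0.0547 RPM. A promoter peak was present at 72.7% of protein-coding genes in DMSO and at 78.7% in MAK683, against 10 of 10 members in each. SMARCB1, the gene G401 lacks, had 0 peaks in its promoter and body in either library, while the mesenchymal markers VIM, CDH2 and TWIST1 and the epithelial markers EPCAM, CDH1 and KRT8 all had a promoter peak in both. Of the blood cell markers, PTPRC, CD3E and CD14 had none and CD79A and SPI1 had one in both libraries, with 20 and 10 tags in DMSO and 14 and 11 tags in MAK683. Their part in the results was not tested.

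Over the members the median log2 ratio of promoter height, MAK683 over DMSO, was -0.58, against -0.42 over all 16247 promoters with a peak. A lower height in MAK683 was the rule there too, since it held at 78.4% of all promoters. The members' promoters were of middling to high height in DMSO, between 1.57 and 3.07 RPM, and among the 8320 promoters in that range the median was -0.53 and 96.7% were lower in MAK683. The 10 of 10 members lower in MAK683 therefore stood close to their background. At least 2-fold lower was 1 of the 10, CEBPB, against 5.75% of all promoters and 7.31% of those in the same range of height. None of the members was at least 2-fold higher, against 3.37% of all promoters. The counting interval of the ratio lay below 0 for 2 of the 10, CEBPB and RELB, against 20.6% of the 14288 promoters with a peak in both libraries. In a bulk library, fewer cells with an open site and a less open site in every cell cannot be told apart.

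**Figure D1:**
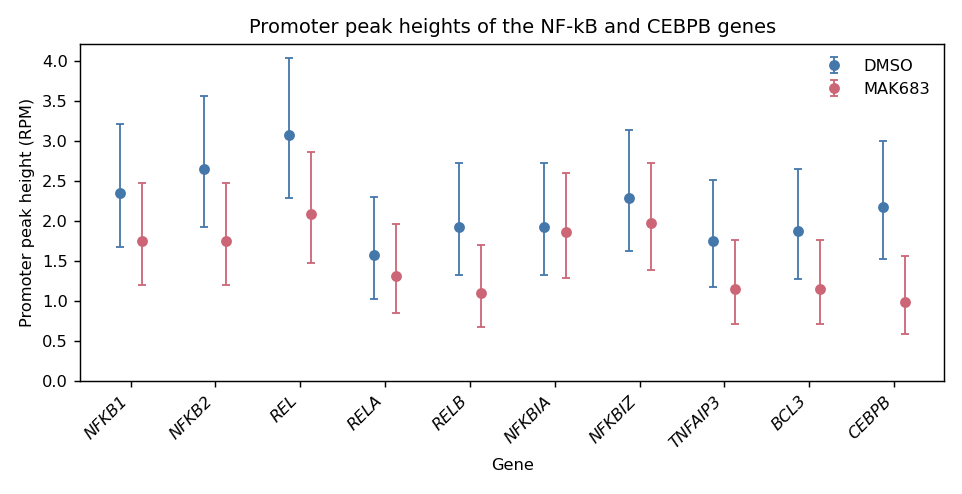
Height of the tallest promoter peak of each gene in RPM, DMSO in blue and MAK683 in red, 1 library each, with 95% exact counting intervals as bars. Every red point lies below its blue partner, the intervals overlap at all 10 genes, and CEBPB shows the widest gap, 2.17 against 0.985.

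Among the subunits that carry the Rel transactivation domain, RELA, the most widely used activator subunit, had the lowest promoter peak of the members in DMSO, 26 tags or 1.57 RPM (1.02 to 2.30, exact Clopper-Pearson interval at 95%), and 24 tags or 1.31 RPM in MAK683 (0.842 to 1.96). Its log2 ratio was -0.25 (-1.05 to 0.55), a difference within counting error. The summit lay upstream of the gene, 342 bp from the TSS in DMSO and 570 bp in MAK683, in both cases inside RELA-DT, the divergent noncoding gene, so that the 2 promoters share the peak.

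REL, which encodes the c-Rel subunit, had the tallest promoter of the members in both libraries, 51 tags or 3.07 RPM in DMSO (2.29 to 4.04) and 38 tags or 2.08 RPM in MAK683 (1.47 to 2.86). The log2 ratio was -0.56 (-1.17 to 0.04). The summits lay within 6 bp of each other, 81 and 87 bp upstream of the TSS and just before the kB match printed above.

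RELB, the partner of the NFKB2 product in the alternative pathway, had 32 tags or 1.93 RPM in DMSO (1.32 to 2.72) and 20 tags or 1.09 RPM in MAK683 (0.669 to 1.69). The log2 ratio of -0.82 (-1.62 to -0.01) was the second lowest of the members, at percentile 13.5 of all promoters. Its summits lay downstream of the TSS in the first intron, at 479 and 513 bp. The peak of the MAK683 library began closer to the gene and was 1035 bp wide against 1275 bp in DMSO, and both kB matches upstream of the TSS lay inside it in each library.

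NFKB1, which encodes p105 and its product p50, had 39 tags or 2.35 RPM in DMSO and 32 tags or 1.75 RPM in MAK683, and the log2 ratio of -0.42 (-1.10 to 0.25) was at percentile 49.8 of all promoters. NFKB2, which encodes p100 and p52, had 44 tags or 2.65 RPM and 32 tags or 1.75 RPM, with a log2 ratio of -0.60 (-1.25 to 0.06). Both ratios were within counting error of 0. The summit of NFKB2 lay 1613 bp upstream of the canonical TSS in DMSO and 1632 bp in MAK683, near the start of the longest annotated transcript at chr10:104153867, and all 6 kB matches of the gene lay in this wide peak.

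Of the inhibitors, NFKBIA had a nearly level promoter, 32 tags or 1.93 RPM in DMSO (1.32 to 2.72) and 34 tags or 1.86 RPM in MAK683 (1.29 to 2.60). Its log2 ratio of -0.05 (-0.75 to 0.65) was the highest of the members, at percentile 76.3 of all promoters, and it was the only gene whose unscaled tags were more in MAK683. Without depth scaling its log2 ratio was 0.09. NFKBIZ, which encodes the nuclear protein IkB zeta, had 38 tags or 2.29 RPM and 36 tags or 1.97 RPM, with a log2 ratio of -0.22 (-0.87 to 0.44). The height at both genes differed by less than counting error.

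TNFAIP3, which encodes the deubiquitinase A20 that switches off signaling upstream of IkB kinase, had 29 tags or 1.75 RPM in DMSO (1.17 to 2.51) and 21 tags or 1.15 RPM in MAK683 (0.712 to 1.76). The log2 ratio was -0.60 (-1.41 to 0.21), with the summits at 55 bp downstream and 6 bp upstream of the TSS. BCL3, a nuclear IkB-like protein that joins p50 and p52 dimers, had 31 tags or 1.87 RPM and 21 tags or 1.15 RPM, a log2 ratio of -0.70 (-1.50 to 0.10). Neither interval left out 0. The tall BCL3 peak lay 1083 bp upstream of the canonical TSS, near the 5′ end of the gene, and held the match printed above. The canonical TSS itself had a separate, smaller DMSO peak of 11 tags with its summit 299 bp downstream in the coding exon, and no MAK683 peak. The kB match at 2 to 11 bp downstream of the TSS lay in that DMSO peak.

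CEBPB had 36 tags or 2.17 RPM in DMSO (1.52 to 3.00) and 18 tags or 0.985 RPM in MAK683 (0.584 to 1.56). It was in the middle of the 10 promoters in DMSO and last in MAK683. The log2 ratio of -1.14 (-1.95 to -0.32) was at percentile 2.56 of all promoters. It was no longer 2-fold when heights were centred on shared regions, at -0.81, or when all promoter peaks were summed, at -0.61. Part of the MAK683 sum was a separate peak of 11 tags whose summit lay inside the single wide DMSO peak. The peak remained wide, 2594 bp in DMSO and 2232 bp in MAK683, while the summit lay 10 bp upstream of the TSS in DMSO and 375 bp upstream in MAK683, a distance of 365 bp. The antisense noncoding gene CEBPB-AS1 also spans both summits.

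**Figure D2:**
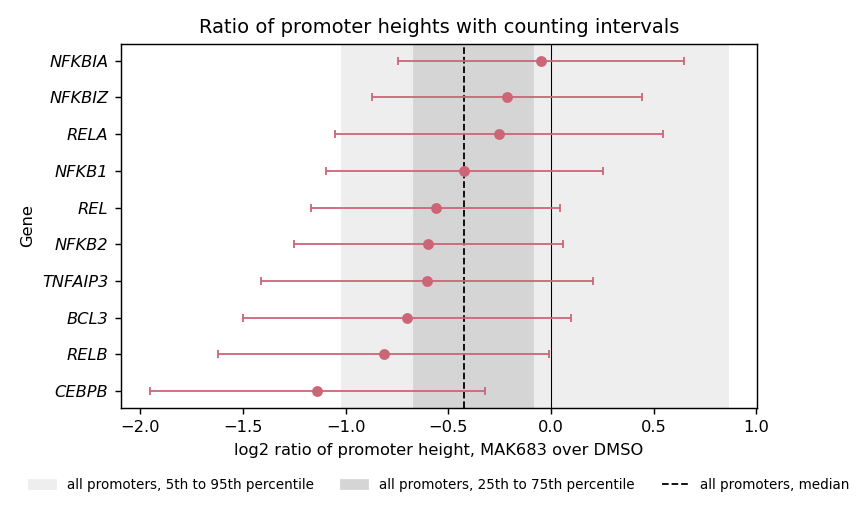
Log2 ratio of promoter height, MAK683 over DMSO, for each gene with 95% counting intervals, over grey bands for the middle of all 16247 promoters with a peak and a dashed line at their median. The medians are -0.58 for the members and -0.42 for all promoters, and CEBPB at -1.14 is the one point outside the wider band, which starts at -1.02.

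Ordered by height in DMSO, the promoters ran REL, NFKB2, NFKB1, NFKBIZ, CEBPB, RELB and NFKBIA at the same height, BCL3, TNFAIP3 and RELA. None of the 9 pairs of neighbours in this order had a ratio whose counting interval left out 0, and 6 of all 45 pairs had one, 5 of them between REL and one of the 5 lowest promoters. In MAK683 the order ran REL, NFKBIZ, NFKBIA, NFKB1 and NFKB2 at the same height, RELA, TNFAIP3 and BCL3 at the same height, RELB and CEBPB. Again none of the 9 neighbouring pairs and 9 of the 45 pairs were apart by more than counting error, and CEBPB was apart from REL, NFKBIZ and NFKBIA. The genes whose pair of heights was most like that of NFKBIA were DRAM1, ENSG00000273155 and ITGA9, at the same tags in both libraries as 6 genes in all, taken in alphabetical order. Those most like CEBPB were ALG13, BUB1 and ENSG00000269755, of 5 genes with the same tags. The likeness is a distance between a pair of log2 heights over 2 libraries and is a description.

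The promoters of 9 of the 10 members had a GC content above the median of all promoters with a peak, a feature that the choice of genes did not use. From 250 bp before to 50 bp after the TSS the members had between 62.1% (NFKBIA) and 79.7% G and C (BCL3), with a median of 75.6%, against 65.8% over all promoters with a peak. Among the 5479 promoters in the members' range of both GC content and DMSO height, the median log2 ratio was -0.51 and 6.21% were at least 2-fold lower in MAK683. The members' median of -0.58 and the count of 1 in 10 were near these values.

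With their promoters included, the 10 genes held 59 open regions, where peaks of both libraries that overlapped by at least 1 bp counted as 1 region. Of these, 28 had a peak in both libraries, 28 in DMSO only and 3 in MAK683 only. Over all protein-coding genes, 32.1% of 123049 regions were shared, 29.4% were DMSO only and 38.5% MAK683 only. Regions that touched the 3 kb around the TSS numbered 32 at the members, 16 shared, 13 DMSO only and 3 MAK683 only, against 54.5%, 22.2% and 23.3% of 31183 such regions at all protein-coding genes. In the rest of the gene bodies the members had 12 shared regions, 15 in DMSO only and none in MAK683 only. The DMSO-only regions were low, with 7 to 15 tags and a median of 9 tags, close to the lowest called peak of 6 tags. The balance thus lay on the DMSO side at the members, where the series as a whole had 1.41 times as many peaks in MAK683.

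A count per gene uses the same 56 and 36 peaks, so it is no independent view, and it leans to the same side at the members. More DMSO than MAK683 peaks were called at 8 of the 10 members, against 44% of the 14150 protein-coding genes that had a peak and a length in the members' range. NFKB2 had 6 peaks in each library, and TNFAIP3 had 2 in DMSO and 3 in MAK683. The ratio of MAK683 to DMSO peaks was 0.643 over the members and 0.959 over those 14150 genes. How many regions count as found in 1 library depended on the rule, and among peaks with −log10 q of 10 or more the DMSO-only regions numbered 4 and the MAK683-only region 1. Shares over all protein-coding genes were not computed under the other rules.

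**Figure D3:**
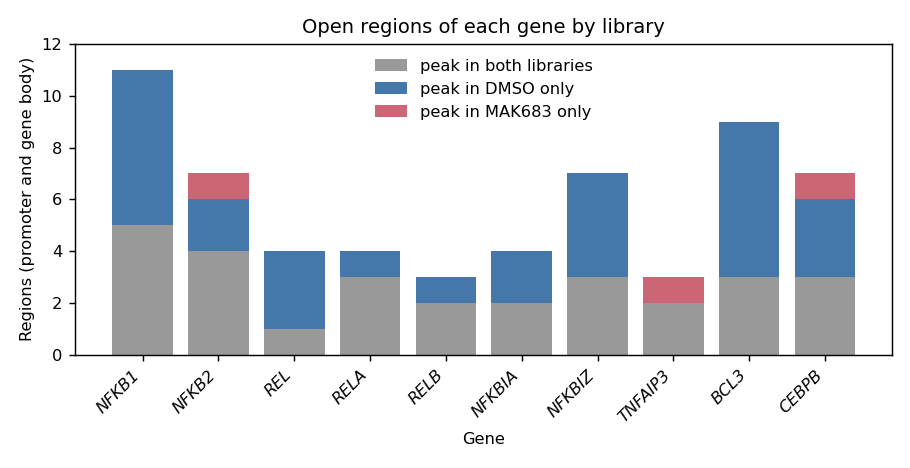
Open regions in the promoter and body of each gene, stacked by whether a peak was called in both libraries (grey), DMSO only (blue) or MAK683 only (red). NFKB1 and BCL3 carry 6 DMSO-only regions each, and the 3 MAK683-only regions belong to NFKB2, TNFAIP3 and CEBPB.

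NFKB1, the longest of the genes at 115973 bp, had 11 DMSO peaks and 5 MAK683 peaks. Its 6 DMSO-only regions, of 8 to 10 tags, were spread through the introns up to 63919 bp from the TSS. A shared intronic region near 18.4 kb from the TSS, with 9 tags in DMSO and 12 in MAK683, was its only region with a higher depth-scaled height in MAK683, with a log2 ratio of 0.28 (-0.97 to 1.52). REL had 4 DMSO peaks and, beside its tall promoter, no other MAK683 peak. The regions of both genes without a MAK683 peak were all weak, at 8 to 12 tags.

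NFKB2 had a tall region inside the gene, with a summit 3984 bp downstream of the TSS in a coding exon, at 36 tags or 2.17 RPM in DMSO and 25 tags or 1.37 RPM in MAK683. Its log2 ratio of -0.66 (-1.40 to 0.07) was near that of the promoter. A further region at chr10:104161022-104162257, near the end of the gene, had 17 and 16 tags. The gene was therefore open at its promoter, middle and end in both libraries.

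RELA had a wide DMSO peak across its 3′ end, at chr11:65417779-65421699, with 18 tags at a summit that lay outside the gene. The MAK683 peak in this region had 9 tags at a summit elsewhere in it, and the log2 ratio of -1.14 (-2.29 to 0.02) compares different points. RELB had 12 tags in both libraries in an intron 15.6 kb from the TSS, a log2 ratio of -0.14 (-1.29 to 1.02). Apart from its promoter this was the only RELB region found in both libraries.

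NFKBIA had a second upstream region, 2.4 kb from the TSS in DMSO, at 16 tags and in MAK683 at 11 tags, which held 2 of the matches of the C/EBP motif. A DMSO peak of 15 tags in the gene, 2369 bp downstream of the TSS in an intron, was the tallest of the 28 DMSO-only regions and had no MAK683 counterpart. The main promoter peak spanned 3148 bp in DMSO and 2232 bp in MAK683, where its upstream part was called as a peak of its own.

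NFKBIZ has an upstream promoter near the start of the longest transcript, 21755 bp before the canonical TSS, where the gene overlaps NXPE3. That region had 30 tags or 1.81 RPM in DMSO and 23 tags or 1.26 RPM in MAK683, a log2 ratio of -0.52 (-1.31 to 0.26). The 4 DMSO-only regions, of 7 to 9 tags, all lay between the upstream and the canonical TSS. A wide DMSO peak of 3694 bp at the canonical TSS was met in MAK683 by 3 separate peaks, the widest of which at the TSS was 1822 bp.

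At TNFAIP3 the regions beside the promoter were higher in MAK683. A region 2036 bp upstream of its TSS, inside the noncoding gene WAKMAR2, had 11 tags or 0.663 RPM in DMSO and 18 tags or 0.985 RPM in MAK683, with a log2 ratio of 0.57 (-0.51 to 1.65). An intronic region 2733 bp downstream had a peak of 9 tags in MAK683 only. The interval of the upstream region included 0. At CEBPB, a region that touched the 3 kb limit upstream had 11 tags in MAK683 only, while 3 regions of 8 and 9 tags were in DMSO only.

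Of the 28 shared regions, 24 were lower and 4 higher in MAK683 after depth scaling, with a median log2 ratio of -0.39. Over all protein-coding genes 78.7% of shared regions were lower, with a median of -0.37. The 4 higher regions, at NFKB1, RELA, TNFAIP3 and CEBPB, had 8 to 11 tags in DMSO and ratios whose intervals included 0. The ratio of the members' shared regions was near that of the background.

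**Figure D4:**
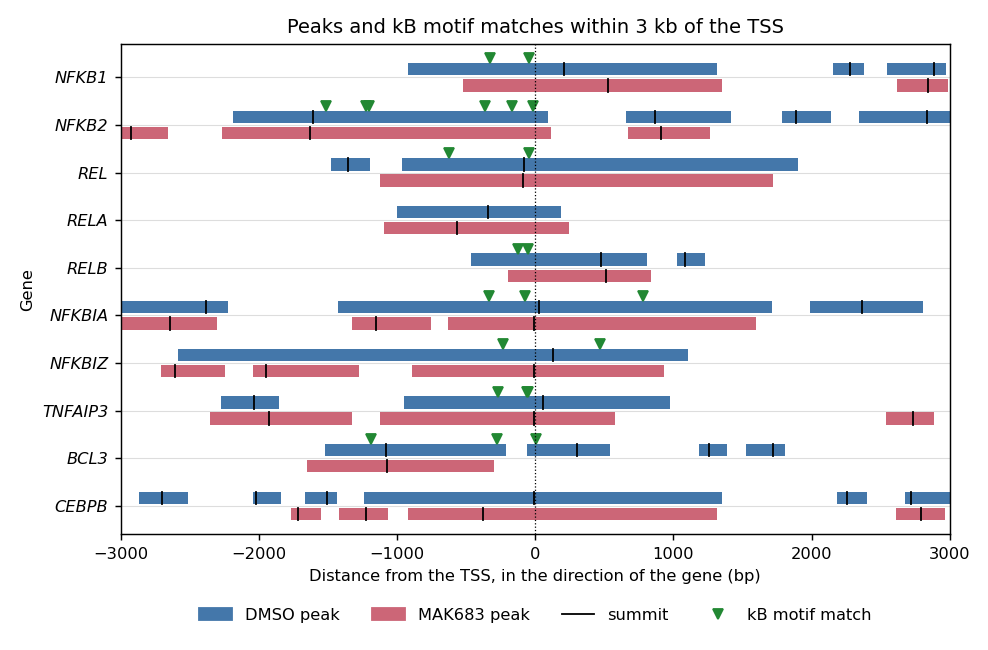
Peaks of the DMSO library (blue) and the MAK683 library (red) within 3 kb of the TSS of each gene, by distance from the TSS in bp, with summits as black lines and kB motif matches as green triangles. All 23 matches lie in DMSO peaks and 21 in MAK683 peaks, and RELA and CEBPB show none.

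The rest of the pathway was read from a list of 54 genes in 6 groups. A promoter peak was present at 41 of them in DMSO and 47 in MAK683. A gene with a peak in 1 library only was given the floor of 0.361 RPM in the other, the lowest called height, and such a ratio depends on the floor and is no bound. Of the 48 genes with a peak, 39 were lower and 9 higher in MAK683, with a median log2 ratio of -0.39, near the -0.42 of all promoters. At least 2-fold lower were 5 genes and at least 2-fold higher 4 genes, against 5.75% and 3.37% of all promoters. With a peak required in both libraries they numbered 4 and 1, against 5.89% and 1.11% of such promoters. A peak in MAK683 only was found at 7 of the 54, against 7.87% of all protein-coding genes, and a peak in DMSO only at 1, against 1.84%.

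All 9 kinases and their partners, among them CHUK, IKBKB and IKBKG, the subunits of IkB kinase, had a promoter peak in both libraries and were lower in MAK683, with a median log2 ratio of -0.42 and none at least 2-fold. All 7 other inhibitors were lower as well, with a median of -0.37. TNIP2, which binds A20, had 25 tags in DMSO and 13 in MAK683, a log2 ratio of -1.08 (-2.05 to -0.11). The 3 genes of the linear ubiquitin ligase were lower, with a median of -0.51. These groups lay near the median of all promoters.

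Of the 16 receptors and adaptors, 12 were lower and 2 higher. MYD88, the adaptor of Toll-like and interleukin 1 receptors, had 52 tags or 3.13 RPM in DMSO and 27 tags or 1.48 RPM in MAK683, a log2 ratio of -1.08 (-1.75 to -0.41). The MYD88 summits did not lie at its TSS but upstream of it, by 1322 bp in DMSO and 1478 bp in MAK683. TNFRSF1A, the main receptor of TNF, had 53 and 16 tags, a log2 ratio of -1.87, but the summits compared lay 5706 bp apart. The DMSO peak was 7510 bp wide, and its summit inside the gene was met in MAK683 by a peak of 36 tags, which gives a log2 ratio of -0.70 (-1.31 to -0.09). LTBR, the lymphotoxin beta receptor, had a DMSO peak of 12 tags only. The interleukin 1 receptor gene IL1R1 with 9 tags and TLR4 with 11 tags had a peak in MAK683 only, and CD40 and BIRC3 had none in either library.

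Of the 14 target genes, 5 had a promoter peak in DMSO and 10 in MAK683. Against the floor 6 were higher and 4 lower in MAK683, with a median log2 ratio of 0.67. Over the 5 with a peak in both libraries 4 were lower, against 86.5% of all such promoters. The median of the 5 was -0.14, so the sign of the group's median rests on the genes with a MAK683 peak only. The chemokine gene CXCL2 had a MAK683 peak of 20 tags or 1.09 RPM with its summit 32 bp downstream of the TSS. CCL2, a chemokine that draws monocytes, had 19 tags or 1.04 RPM at a summit 7 bp before the TSS. CXCL1, a chemokine that draws neutrophils, had 14 tags with its summit 807 bp upstream. None of the 3 had a DMSO peak, so their log2 ratios of 1.60, 1.52 and 1.08 were taken against the floor and are not measured changes.

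PTGS2, the gene of the inducible cyclooxygenase, had a peak in both libraries, 8 tags or 0.482 RPM in DMSO (0.208 to 0.950) and 23 tags or 1.26 RPM in MAK683 (0.798 to 1.89). Its log2 ratio of 1.39 (0.22 to 2.55) lay above 0 over its whole interval, and it was the only higher target gene with a peak in both libraries. Its summits lay at different points, 403 bp upstream of the TSS in DMSO and 40 bp downstream in MAK683. IL1B with 10 tags and VCAM1 with 11 tags had a peak in MAK683 only. ICAM1, an adhesion molecule that leukocytes bind, had 20 tags in DMSO and 11 in MAK683, a log2 ratio of -1.001 (-2.06 to 0.06), with summits 1470 bp apart. The MAK683 peak nearest to its DMSO summit had 10 tags, a log2 ratio of -1.14 (-2.23 to -0.04). IL6 had 14 and 15 tags and SOD2 40 tags in both libraries, so both were lower only after depth scaling. LIF had 19 tags in DMSO and 13 in MAK683, with summits 4120 bp apart. CXCL8, CCL20, IL1A and TNF had no promoter peak in either library, so openness at targets was seen at some genes and not at others.

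The 5 relatives of CEBPB gave ratios between -0.62 and 0.05, with a median of -0.19. CEBPD, a relative that is induced in inflammation, had 28 tags in DMSO and 29 in MAK683, a log2 ratio of -0.09 (-0.84 to 0.66). CEBPA had 26 and 25 tags, a log2 ratio of -0.19 (-0.99 to 0.60). CEBPB was thus the one promoter of the family at least 2-fold lower, and its interval of -1.95 to -0.32 overlapped those of CEBPD and CEBPA.

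**Figure D5:**
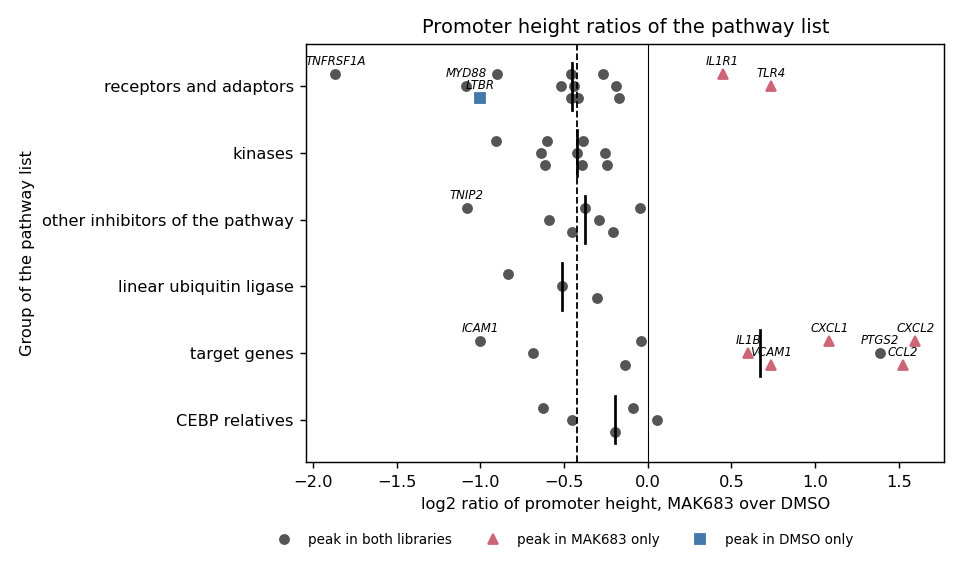
Log2 ratio of promoter height, MAK683 over DMSO, for the 48 genes of the pathway list with a peak, by group, with a short black line at each group's median and a dashed line at the median of all promoters, -0.42. Triangles (MAK683 only) and the square (DMSO only) use the floor of 0.361 RPM in the other library. Most points of the other groups lie around the dashed line, and the target genes spread from -1.001 to 1.60.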

How the data were processed

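Per the study's methods and the labels, Trim-galore trimmed the reads of 1 DMSO and 1 MAK683 culture and Bowtie2 placed them on hg19. The authors then called peaks separately for each library, with MACS 2.1.1.20160309 per the file headers, while the submitters' processing notes name 2.1.0 and 2.2.7.1. Single ends were moved by -100 bp and lengthened to 200 bp, 1 tag was kept per position, no control or local background was used, and the q-value cutoff was 0.05.

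The deposited pileup is an unscaled signal in whole tags at the summit. Fold enrichment, a deposited ratio to 1 genome-wide background, was used as an alternative. Deposited −log10 values of p and q depend on depth, and the −log10 q served as a filter.

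Heights were scaled to tags kept and compared with Python 3.11.15, pandas 2.3.3 and scipy 1.17.1. Gene models were GENCODE release 44 on hg19, with 1 canonical TSS per gene, and sequences were read from GRCh37 with pysam 0.24.0. Heights have exact Clopper-Pearson intervals, and ratios have normal intervals of log Poisson counts. Both treat tags as independent, which read pairs of 1 fragment are not. Scripts were tested on simulated data, and the closing section gives the alternatives tried.

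Members and gene lists were chosen with earlier results of these data known. Named from the pathway list were genes at least 2-fold apart or with a peak in 1 library, and other genes were named to show a group. For likeness, the 3 nearest genes to the highest and lowest member were taken. The promoter sequence of RELB is not reported here.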

Additional observations from a re-analysis of the deposited data

How the results depend on the processing

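Of 100 values of single members under alternatives, 91 stayed within the counting interval of the reported value with the same sign, 1 moved and 8 reversed. Many of the 91 were the reported value itself. Windows of 1 kb and 5 kb, the starts of all basic transcripts and a summit required within 3 kb picked the same peaks. Leaving out the floor could not change a member, since all 10 had a peak in both libraries. Without depth scaling NFKBIA was at 0.087, and 9 of 10 members were lower, against 70.6% of all promoters. With the deposited fold enrichment NFKBIA was at 0.0071. Scaling so that regions with a peak in both libraries had a median ratio of 1 shifted every log2 ratio up by 0.33, since that median was -0.33. RELA was then at 0.077, NFKBIA at 0.28 and NFKBIZ at 0.11, 7 of 10 members were lower, CEBPB was at -0.81, no longer 2-fold, and the members' median moved to -0.25 against -0.09 over all promoters, of which 58.8% were lower against 78.4%. With the peak nearest to the TSS, the members' median of -0.34 lay above that of all promoters. BCL3 was then at 0.79, a value that compares different sites. Its DMSO peak of 11 tags lay 299 bp downstream of the TSS and its MAK683 peak of 21 tags 1076 bp upstream. With summed promoter peaks NFKBIZ was at 0.64, TNFAIP3 at 0.12 and BCL3 at -1.90. CEBPB was no longer 2-fold at -0.61, and RELB was 2-fold lower at -1.14. At least 2-fold lower were then 2 of the 10 members and 13.2% of all promoters. A sum grows where 1 wide peak is called as several, as at NFKBIZ with 3 MAK683 peaks against 1 in DMSO. The other window, TSS and floor settings left the members' median at -0.58, and all 10 kept a promoter peak in both libraries at a −log10 q of at least 10.

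The counts of regions were less stable. DMSO-only regions numbered 12 at a −log10 q of at least 5 and 4 at 10, where 13 were shared and 1 MAK683 only. With 50% of each peak overlapped, 15 were MAK683 only. With summits within 150 bp, 16 were shared and 20 MAK683 only against 40 in DMSO only. With 10 kb on both sides of the gene, 52 were shared and 5 MAK683 only. The matching shares over all protein-coding genes were not computed. In the pathway list, 2 genes were at least 2-fold lower without depth scaling, against 3.32% of all promoters. With a peak in both libraries required, 1 was at least 2-fold higher, against 1.11%. Requiring the summit within 3 kb, chosen after seeing the data, left 4 genes at least 2-fold lower, against 5.68% of all promoters. No paired analysis was possible because each group had 1 library, and no library could be left out. Depth limits the weak regions, since a peak of 9 tags and an uncalled site can differ by counting error alone.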

Other observations

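Within 50 kb on either side of the members' bodies and outside their promoters lay a further 148 open regions, 65 with a peak in both libraries, 59 in DMSO only and 24 in MAK683 only. Over all regions at protein-coding genes the shares were 32.1%, 29.4% and 38.5%, a set that covers promoters and gene bodies and not flanks. Of the 65 shared regions 51 were lower and 14 higher in MAK683, against 78.7% lower over shared regions at protein-coding genes. Many belong to neighbouring genes, and none was tied to a member.

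Around TNFAIP3 all 6 such regions had a peak in MAK683 only, with 7 to 12 tags, between 49998 bp upstream and 54959 bp downstream of the TSS. At the other 9 genes together, 18 were MAK683 only. Around CEBPB, 9 of 18 were in DMSO only and 1 in MAK683 only. The region at chr20:48781719-48783149, 24621 bp upstream of CEBPB in the noncoding gene LINC01275, had 29 tags in DMSO and 14 in MAK683, a log2 ratio of -1.19 (-2.11 to -0.27). Regions at least as far apart also lay beside members whose promoters were not 2-fold lower, at -1.42 and -1.29 near NFKB2 and at -1.25 near RELA. A region 21669 bp upstream had 15 tags in DMSO and no MAK683 peak. These places were singled out after their values were seen and have no replicate check.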
